A study of Equus caballus with 28 samples.

Results

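The comparison described here set the uterine fluid (UF) of 5 pregnant mares against that of 4 cyclic mares, 9 of the 28 small RNA libraries of the study. Its samples were all libraries labelled as uterine fluid, and they were split by the label for stage. The study followed Warmblood mares (Equus caballus) through a pregnant and a cyclic control cycle each, so that a mare served as its own control, and UF was taken 13 days after ovulation in both. In either cycle ovulation was induced with hCG. Pregnant mares had then been inseminated with fresh semen of 1 stallion and carried an embryo when the UF was taken, whereas cyclic mares were left unbred. Fluid was absorbed by a tampon inside the uterus, washed out with water and centrifuged, and RNA of the supernatant was extracted with a serum and plasma kit. UF is therefore a mixture of secretions, vesicles and any cells left in the supernatant, and fewer cells of a type cannot be told apart from less RNA per cell in these values. Mares 1 to 4 had both libraries, and the pregnant library of mare 5 had no cyclic partner here. The counts covered 690 known miRNAs and 154 miRNAs predicted by the authors' pipeline, of which 80 remained after predicted miRNAs with near-identical counts were counted once. At least 1 read in UF was found for 295 known and 69 predicted miRNAs, and 264 miRNAs seen in 4 or more of the 9 libraries at 1 CPM (reads relative to the total of the library) or higher were tested. The name pred-miR stands for a predicted miRNA and keeps its number from the deposited counts.

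miRNAs are short RNAs that pair with messenger RNAs, mainly through the seed at their 5′ end, and lower the translation or the stability of these targets. They leave cells in extracellular vesicles and bound to proteins, so that the fluid of the uterine lumen carries miRNAs of the glands and the lining epithelium, of blood and immune cells and, in pregnancy, possibly of the conceptus. In the mare the days around the sampling are those of maternal recognition of pregnancy, when the mobile conceptus keeps the endometrium from releasing the prostaglandin that would end the life of the corpus luteum.

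Between 60743 and 224221 reads were counted per library after merging, so that 1 read amounted to between 4.46 and 16.5 CPM and a floor of 3 reads to between 13.4 and 49.4 CPM. Such floors account for counting error alone, because reads copied by PCR do not stand for separate molecules. The cyclic library of mare 3 stood apart. It was the smallest library, let-7 miRNAs took 59.3% of its reads against between 31.6% and 43.2% in the other 8 libraries, and its 10 most abundant miRNAs took 77.8% against between 66.1% and 72.04%. Predicted miRNAs took 1.23% of its reads against between 0.602% and 0.887%, and its mean rank correlation with the other libraries over the tested miRNAs was 0.842 against between 0.882 and 0.907. The main results are therefore given with and without mare 3. Over all libraries, total reads, the share of predicted miRNAs, how many known miRNAs had a read at equal depth and the share of the 10 most abundant miRNAs gave exact two-sided permutation p-values between 0.190 and 0.810 for pregnant against cyclic mares, with libraries permuted without regard to the pairing (0.762 to 0.810 after adjustment over the 4 tests). At a depth of 60743 reads, 188 ± 8.34 known miRNAs had a read in pregnant UF (SD, n = 5) and 183 ± 11.3 in cyclic UF (SD, n = 4).

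None of the 12 most abundant known miRNAs of UF was called between pregnant and cyclic mares, and few others were. let-7a was the most abundant known miRNA in UF, with 184851 ± 33298 CPM in pregnant (SD, n = 5) and 187894 ± 119162 CPM in cyclic mares (SD, n = 4), followed by let-7c, miR-21, miR-26a, let-7f and miR-10a. Before normalization, let-7a had 272328 CPM in the cyclic library of mare 3 and at most 223562 CPM in any other UF library. The 12 most abundant also held miR-449a and miR-34c, known from ciliated cells, miR-200c and miR-200a, known from epithelia, and miR-92b and miR-27b, and none of the 12 was called. Of the 264 miRNAs, 8 passed both thresholds, a 2-fold change and a false discovery rate (FDR) not above 0.05, which is 3.03%, namely 3 higher and 5 lower in pregnant mares (1.14% and 1.89%). The 3 known miRNAs among them were miR-23b and miR-23a, which were upregulated, and miR-486-5p, which was downregulated. An unadjusted p under 0.05 was reached by 26 miRNAs (9.85%), and the median log2 fold change of all tested miRNAs was -0.03. No miRNA had a read in every library of one group and none in the other. Without the mare as a block 0 were called by edgeR's quasi-likelihood test (20 with an unadjusted p under 0.05). That fit also brings the unpaired library of mare 5 into the contrast. With the block kept, the filterByExpr filter and libraries thinned to equal depth gave 0 calls as well. Why the calls were lost was not tested.

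Both miR-23 miRNAs rose in pregnant UF while their neighbours miR-27 and miR-24 did not pass the test. The genes of miR-23b and miR-27b lie next to each other beside a gene of miR-24, and those of miR-23a and miR-27a beside another, in the RefSeq annotation of the horse assembly TB-T2T. The clusters are transcribed as joint precursors in mammals and are known from studies of blood vessels, muscle and immune cells. miR-23b had a level of 3115, 1212, 816 and 3708 CPM in the cyclic UF of mares 1 to 4, and of 4510.3, 5501, 8889, 6739.8 and 4044 CPM in the pregnant UF of mares 1 to 5. At these normalised levels every pregnant library lay above every cyclic library, and the level was higher in pregnancy in 4 of 4 mares. In plain CPM, before normalization between libraries, the cyclic library of mare 4 (3902 CPM) lay just above the pregnant library of mare 1 (3858 CPM). The difference was 1.71 ± 0.34 on the log2 scale (± SE), 3.26-fold, with an FDR of 0.000234. By mare, the log2 difference was 0.53, 2.18, 3.45 and 0.86 in mares 1 to 4. The SE was derived from the test statistic and does not measure this spread between mares. miR-23a had 1577, 629, 662 and 3408 CPM in cyclic and 2089, 2940.3, 4091, 4343 and 2107 CPM in pregnant UF. It was higher in pregnancy in 4 of 4 mares as well, although the cyclic value of mare 4 lay within the pregnant range, and differed by 1.37 ± 0.35 (2.59-fold, FDR 0.00589).

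The partners in the clusters gave other values. miR-27b had 27304, 24268, 12992 and 20544 CPM in cyclic and 25882, 29604, 30538, 19392 and 20230 CPM in pregnant UF, with a log2 fold change of 0.33 ± 0.30 (FDR 0.828). For miR-27a it was 0.15 ± 0.34 (FDR 0.990) and for miR-24, which the counts do not split by its genes, 0.22 ± 0.31 (FDR 0.935). Their values overlapped widely between the groups. A ratio within a library does not depend on the normalization between libraries. For every 100 reads of miR-27b there were 11.4, 5.00, 6.28 and 18.05 reads of miR-23b in the cyclic UF of mares 1 to 4 and 17.4, 18.6, 29.1, 34.8 and 19.99 in the pregnant UF of mares 1 to 5. All pregnant libraries but that of mare 1 lay above the highest cyclic value. In the endometrium this ratio lay between 4.83 and 17.7 in cyclic and between 4.96 and 16.6 in pregnant mares, so that those groups overlapped. For every 100 reads of miR-27a there were 65.8, 51.4, 50 and 158.8 reads of miR-23a in the cyclic UF of mares 1 to 4. In the pregnant UF of mares 1 to 5 there were 82.1, 163, 245, 264 and 155, so that mares 1 and 5 lay below the cyclic value of mare 4. miR-23a and miR-23b have similar sequences whose reads the counting could split, and miR-23a took between 31.5% and 39.2% of their joint reads in pregnant and between 33.6% and 47.9% in cyclic UF. With reads summed by miRNA number and arm, which does not depend on that split, miR-23 differed by 1.56 ± 0.32 (FDR 0.000751), 1 of 2 sums called among 188 (1.06%), with miR-486-5p the other. Neither sum was called without mare 2 or without mare 3, where miR-23 had 1.40 ± 0.39, FDR 0.0765 and 0.98 ± 0.32, FDR 0.265. Without mare 3 miR-23b stayed called at 1.10 ± 0.29 (FDR 0.0127), a smaller difference, and miR-23a did not (0.88 ± 0.31, FDR 0.107). Among known miRNAs alone, miR-23b was not called without mare 3 (FDR 0.204, a setting added after the data were seen). Over the other settings tried the FDR of miR-23b ran from 6.82e-05 to 0.662 and that of miR-23a from 0.00234 to 0.764.

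**Figure D1:**
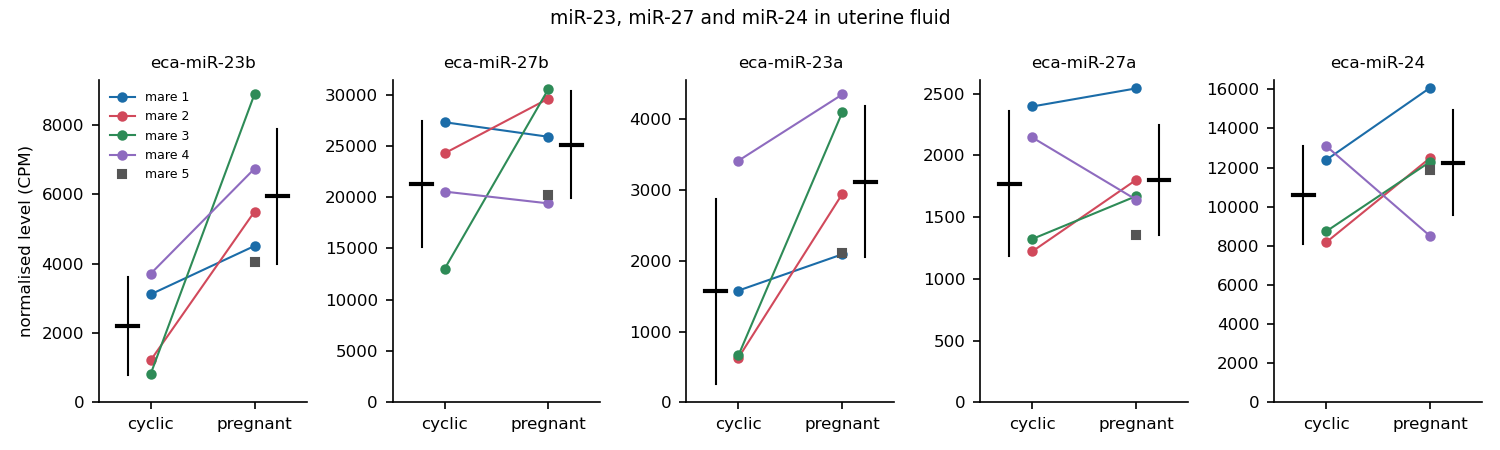
Normalised level (CPM, linear axes from 0) of miR-23b, miR-27b, miR-23a, miR-27a and miR-24 in each UF library. Lines join the cyclic and pregnant sample of mares 1 to 4, the square is the pregnant sample of mare 5, and black bars give the mean ± SD of 4 cyclic and 5 pregnant libraries. All lines rise for miR-23b and miR-23a, whereas lines of miR-27b, miR-27a and miR-24 run both ways.

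miR-486-5p, a miRNA of red blood cells and muscle, fell in pregnancy in 4 of 4 mares. Its level was 1215, 1809.8, 1566 and 992 CPM in the cyclic and 638, 379, 957, 462 and 2515 CPM in the pregnant UF. The pregnant sample of mare 5, which has no partner and does not enter the contrast, was the highest of all 9, so that the groups overlapped. The log2 fold change was -1.24 ± 0.37 (FDR 0.0294) and became -1.51 ± 0.35 without mare 3 (FDR 0.00200). miR-451, which matures in red blood cells, had 102, 433, 22.1 and 93.3 CPM in cyclic and 34.96, 77.4, 100, 60.8 and 385 CPM in pregnant UF. It was lower in pregnancy in mares 1, 2 and 4 and higher in mare 3, with a log2 fold change of -1.01 ± 0.56 (FDR 0.497), and was called without mare 3 at -1.80 ± 0.49 (FDR 0.0127). Over the other settings tried the FDR of miR-486-5p ran from 0.00200 to 0.830 and that of miR-451 from 0.0127 to 0.999. The remaining erythroid marker, miR-144, had 1 read in all pregnant and 0 reads in all cyclic UF libraries together. The summed level of the erythroid markers lay between 1142 and 2863 CPM (median 1266) in cyclic and between 506 and 3272 CPM (median 576) in pregnant UF, every one of them below the 6462 to 13466 CPM of cyclic endometrium. In pregnant endometrium it lay between 2681 and 11299 CPM (median 5847), which overlapped the values of UF. In UF miR-486-5p took most of the sum, with 1006 of 1168 reads in cyclic and 516 of 584 in pregnant mares. The striated muscle markers miR-1, miR-133a, miR-133b and miR-206 had 1 read in cyclic and 2 reads in pregnant UF. Whether traces of blood differed between the samplings was not tested.

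The other 5 called miRNAs were predicted ones, whose targets and functions were not examined here. pred-miR-126, counted once for 2 near-identical predictions, was the one that rose, with 11.3, 62.9, 66.2 and 29.5 CPM in cyclic and 43.7, 248, 71.4, 608 and 521 CPM in pregnant UF. It was higher in pregnancy in 4 of 4 mares, by 2.34 ± 0.59 on the log2 scale (FDR 0.00469), and by 2.77 ± 0.49 without mare 3 (FDR 7.72e-06). In mare 3 the difference was the smallest, and these levels rested on 2, 18, 3 and 6 reads in cyclic and 5, 32, 10, 50 and 46 reads in pregnant UF.

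pred-miR-28, counted once for 5 predictions, fell in 4 of 4 mares. Its level was 486, 168, 2912 and 177 CPM in cyclic and 184, 92.9, 293, 36.5 and 33.98 CPM in pregnant UF, a difference of -1.97 ± 0.46 (FDR 0.00185), and it stayed called without mare 3 at -1.49 ± 0.43 (FDR 0.0282). pred-miR-11, counted once for 4 predictions, had 187, 423, 3485 and 78.6 CPM in cyclic and 201, 217, 92.8, 24.3 and 408 CPM in pregnant UF, with -1.80 ± 0.50 (FDR 0.0142). pred-miR-131, counted once for 2 predictions, had 481, 154, 1125 and 889 CPM in cyclic and 647, 147, 64.3, 122 and 396 CPM in pregnant UF, with -1.52 ± 0.47 (FDR 0.0444). The cyclic library of mare 3 was the highest of all 9 for each of these. Mare 1 had a higher level of pred-miR-131 in pregnancy and nearly equal levels of pred-miR-11, and mare 2 had nearly equal levels of pred-miR-131. Neither pred-miR-11 nor pred-miR-131 was called without mare 3 (log2 fold changes of -0.77 and -0.79, FDR 0.530 and 0.465). Over the other settings tried the FDR ran from 7.72e-06 to 0.884 for pred-miR-126, from 0.00132 to 0.572 for pred-miR-28, from 0.000354 to 0.932 for pred-miR-11 and from 0.00135 to 0.993 for pred-miR-131.

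Nearly all reads of pred-miR-60 came from 1 library. It had 2, 0, 85 and 1 reads in the cyclic UF of mares 1 to 4 and 1, 1, 0, 0 and 0 in the pregnant UF of mares 1 to 5. Pooled over libraries, its share of reads in pregnant UF was 0.0262 times that in cyclic UF (exact 95% counting interval 0.00313 to 0.0977), and 0.954 times (0.0797 to 8.33) without mare 3. The fitted log2 fold change of -5.61 ± 1.18 (FDR 0.000296) turned to 0.18 without that mare.

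**Figure D2:**
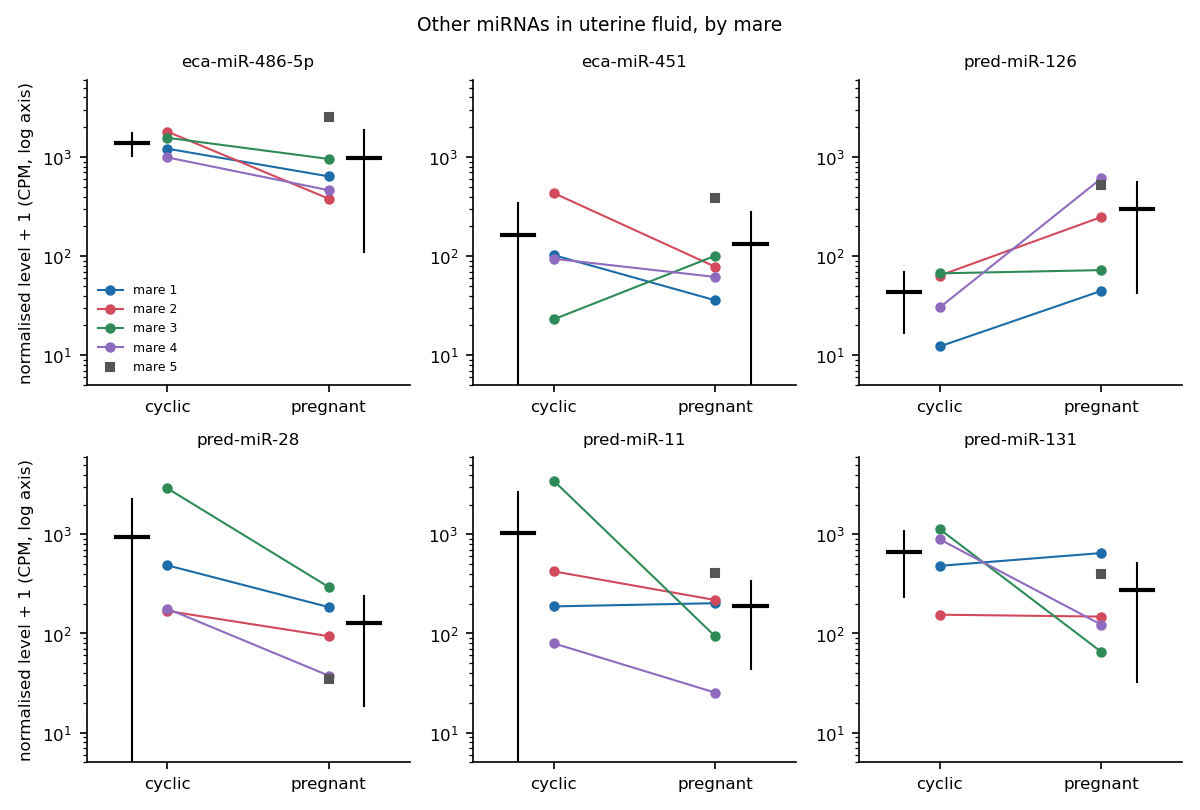
Normalised level + 1 (CPM, log axes) of miR-486-5p, miR-451 and 4 called predicted miRNAs in each UF library. Lines join the cyclic and pregnant sample of mares 1 to 4, the square is mare 5, and black bars give the mean ± SD of 4 cyclic and 5 pregnant libraries, with a lower end at 0 CPM drawn to the foot of the axis. Mare 5 is the highest pregnant sample for miR-486-5p and miR-451, and the cyclic sample of mare 3 is the highest for pred-miR-28, pred-miR-11 and pred-miR-131.

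Without mare 3, 7 of 274 miRNAs were called (2.55%), 2 higher and 5 lower (1.82%). They shared miR-23b, pred-miR-126, pred-miR-28 and miR-486-5p with the 8 of all libraries and added miR-451, miR-502-3p and miR-532-3p. miR-502-3p had 266, 346, 110.3 and 221 CPM in cyclic and 105, 162, 157, 36.5 and 215 CPM in pregnant UF, with -1.10 ± 0.50 in all libraries (FDR 0.396) and -1.61 ± 0.43 without mare 3 (FDR 0.0127). miR-532-3p had 486, 133, 110.3 and 250.5 CPM in cyclic and 157, 116, 92.8, 48.7 and 56.6 CPM in pregnant UF, and these values were -1.10 ± 0.51 (FDR 0.425) and -1.39 ± 0.43 (FDR 0.0469). Mare 4 had the steepest fall of both, and in mare 3 miR-502-3p was higher in pregnancy. Over the other settings tried their FDRs ran from 0.0127 to 0.993 and from 0.0469 to 0.993. The genes of miR-532, miR-188, miR-500, miR-362, miR-501, miR-660 and miR-502 follow each other on the X chromosome in the same RefSeq annotation. Of their 11 mature miRNAs in the counts, a list made after these values had been seen, 8 were tested and 6 had negative log2 fold changes. The median of the 8 was -0.66 and 0 were called in all libraries. Of all tested miRNAs 3.03% were called, a share at which 8 members hold few calls or none. miR-362-5p (1.09 ± 0.64) and miR-500 (0.76 ± 0.72) had positive values, so the members did not share a direction.

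**Figure D3:**
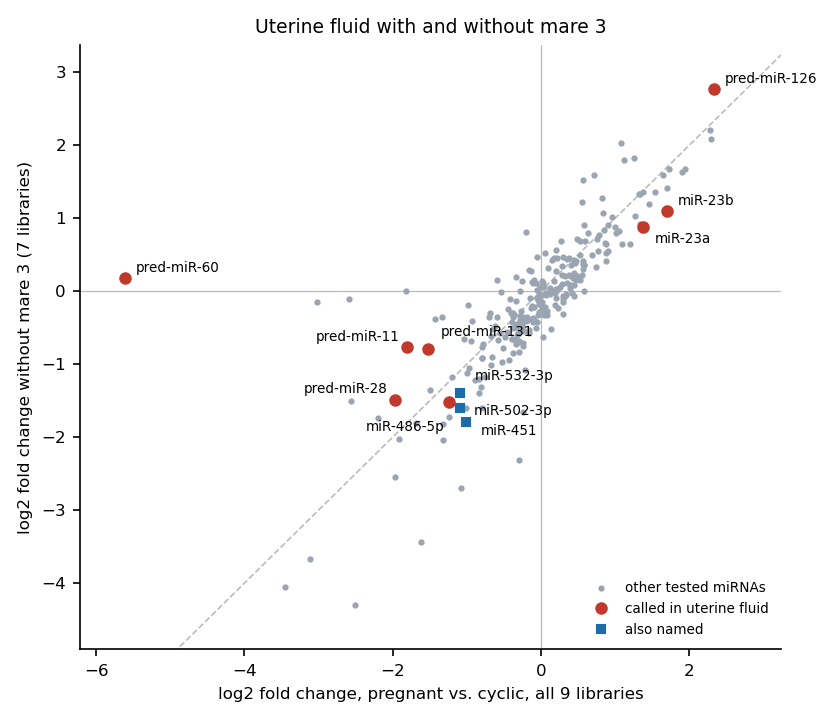
Log2 fold change of each tested miRNA, pregnant vs. cyclic UF, in all 9 libraries (horizontal axis) and without the libraries of mare 3 (vertical axis). Red points are the 8 miRNAs called in all libraries, blue squares those called only without mare 3, grey points the rest, and the dashed line marks equal values. pred-miR-60 moves from -5.61 to 0.18, pred-miR-11 and pred-miR-131 lie at -0.77 and -0.79 on the vertical axis, and miR-23b, pred-miR-126, pred-miR-28 and miR-486-5p keep a difference of more than 2-fold.

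Further known miRNAs differed at least 2-fold with an unadjusted p under 0.05 but did not pass the FDR. Among all libraries these were 7, namely miR-502-3p and miR-532-3p, miR-423-5p (-1.03 ± 0.35, FDR 0.0979), miR-483 (-2.57 ± 0.96, FDR 0.194), miR-362-3p (-1.97 ± 1.01, FDR 0.474), miR-1839 (1.01 ± 0.45, FDR 0.396) and miR-126-5p (1.34 ± 0.68, FDR 0.474). miR-423-5p, a miRNA common in body fluids, had 3171, 929, 6022 and 3295 CPM in cyclic and 2718, 944, 1092, 1144 and 1314 CPM in pregnant UF. Its cyclic values of mares 1, 3 and 4 lay above every pregnant value, and mare 2 had nearly equal levels in both cycles. miR-483, whose gene lies within that of the growth factor IGF2 in mammals, rested on 25 reads in cyclic and 5 in pregnant UF.

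The normalised levels of 9 of the 264 miRNAs (3.41%) did not overlap between pregnant and cyclic UF. Only miR-23b of these was called, although its values overlapped in plain CPM. Of the 7 known ones, miR-26a, a miRNA linked to restraint of cell growth, had 68928, 59224, 52298 and 59702 CPM in cyclic and 70976, 73159, 106573, 87313 and 78745 CPM in pregnant UF, with a log2 fold change of 0.48 ± 0.29 (FDR 0.598). miR-218, which lies within genes of the SLIT family, had 124, 182, 243 and 196 CPM in cyclic and 297, 325, 343, 279.8 and 295 CPM in pregnant UF (0.78 ± 0.44, FDR 0.514). miR-25 was lower in pregnant UF, with 5003, 4675, 5073 and 4346 CPM in cyclic and 3759, 3536, 4263, 3248 and 3047 CPM in pregnant UF (-0.37 ± 0.32, FDR 0.806). In plain CPM its groups overlapped, with 3786 CPM in the cyclic and 3944 CPM in the pregnant library of mare 3. The others were miR-676 (-0.67 ± 0.54), miR-362-3p, miR-331 (-0.78 ± 0.73) and the predicted pred-miR-23 (1.94 ± 0.99) and pred-miR-24 (1.90 ± 0.94), which had the FDRs 0.806, 0.474, 0.855, 0.474 and 0.474. Apart from miR-23b, they were not shown to differ at this depth and number of mares.

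Epithelial markers were the most abundant of the cell type markers over the reads of either group, although in the pregnant UF of mare 4 the ciliated markers summed higher (72029 against 66059.6 CPM). None of the epithelial or ciliated markers was called, beside 3.03% of all tested miRNAs. At that share, lists of this size hold few calls or none. The miR-200 family with miR-141 and miR-429, which keeps cells epithelial by acting on ZEB factors, and miR-205 summed to between 51627 and 98639 CPM (median 95276) in cyclic and between 66059.6 and 91348 CPM (median 72360) in pregnant UF. Of these, 0 of 6 tested members were called, 2 had a positive and 4 a negative log2 fold change, and the median was -0.16. Without mare 3 the median was -0.32, 5 of the 6 were negative and 0 were called. miR-205, known from basal and squamous epithelia, had 1209.8, 2404, 2382 and 2564 CPM in cyclic and 594, 1238, 1078, 2469.6 and 1676 CPM in pregnant UF, the lowest log2 fold change among them (-0.79 ± 0.34, FDR 0.396). The markers of ciliated cells, which line the uterus together with secretory cells, were miR-34b-5p, miR-34b-3p, miR-34c and miR-449a. They summed to between 45783 and 78729.9 CPM (median 50270.5) in cyclic and between 48186 and 72029 CPM (median 65494) in pregnant UF, above the 2703 to 19239 CPM of the cyclic and the 5124 to 17258 CPM of the pregnant endometrium, whose RNA was extracted with another kit. None was called, and miR-34b-5p had the highest value (0.85 ± 0.38, FDR 0.396).

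miR-155, which rises in activated lymphocytes and macrophages, was higher in pregnant UF in 4 of 4 mares but did not pass the test. It had 678, 1177, 1632 and 855 CPM in cyclic and 1591, 2105, 2485, 1642 and 2163 CPM in pregnant UF, with 0.90 ± 0.35, FDR 0.198, and only the cyclic value of mare 3 reached the pregnant range. miR-223, abundant in neutrophils, had 124, 73.4, 1213 and 78.6 CPM in cyclic and 105, 77.4, 107, 72.99 and 56.6 CPM in pregnant UF, so that the cyclic library of mare 3 was the highest of all. Of the leukocyte markers, 0 of 6 tested members were called, beside 3.03% of all tested miRNAs, a share at which such a list holds few calls or none. Among the 6, 4 had a positive and 2 a negative log2 fold change, and the median was 0.31. Without mare 3 the median was 0.03, 3 of the 6 were negative and 0 were called. Stromal and smooth muscle markers were low. The sum of miR-143, miR-145, the miR-199 miRNAs and miR-214 lay between 626 and 2596 CPM (median 1084) in cyclic UF. In pregnant UF it lay between 277 and 5739 CPM (median 2991). Again 0 of 6 tested members were called, beside the same 3.03%, 4 had a positive and 2 a negative log2 fold change, and the median was 0.21. In the endometrium the same sum lay between 12433 and 46362 CPM in pregnant mares. Without mare 3 the median log2 fold change of these markers in UF was 0.10, and 0 were called. Both arms of miR-126, the endothelial marker, had 47 reads in cyclic and 66 in pregnant UF.

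Of the members of the larger miRNA families, 0 were called, beside 3.03% of all tested miRNAs, a share at which lists of this size hold few calls or none. Of the let-7 family, which marks differentiated cells and is kept low in embryonic ones, 0 of 7 tested members were called, 6 had a positive and 1 a negative log2 fold change, and the median was 0.18. Its highest value was that of let-7f (0.59 ± 0.30, FDR 0.474) and its lowest that of let-7c (-0.41 ± 0.30, FDR 0.788). Of the miR-30 family, 0 of 4 tested members were called, 1 had a positive and 3 a negative log2 fold change, and the median was -0.23. Of the miR-17, miR-18, miR-19 and miR-92 families, which promote cell proliferation, 0 of 13 tested members were called, 9 had a positive and 4 a negative log2 fold change, and the median was 0.21. miR-92a was the lowest among them in pregnant relative to cyclic mares (-0.60 ± 0.31, FDR 0.474), and miR-17 and miR-106a had near-identical counts, so that their reads cannot be told apart. miR-204b (-0.38 ± 0.31, FDR 0.806) and miR-211 (-0.17 ± 0.42, FDR 0.990), of a family found in epithelia, were not called. Among miRNAs often used as references in body fluids, 0 of 7 tested members were called, 3 had a positive and 4 a negative log2 fold change, and the median was -0.04, and miR-423-5p was the lowest. All these medians lie beside a median of -0.03 over all tested miRNAs. Without mare 3 they were 0.42 for let-7, -0.37 for miR-30, 0.05 for the miR-17 to miR-92 families and -0.09 for the references, beside -0.08 over all. let-7f then had 0.68 ± 0.22 (FDR 0.0574), and 0 of these members were called. miR-30c, miR-130a, miR-660, miR-132, miR-362-5p and miR-221 were also followed in UF, and their FDRs lay between 0.529 and 0.935.

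The miRNAs that mark the early embryo were at or near 0 in UF, whether an embryo was present or not. The clusters miR-302 with miR-367 and miR-371 with miR-372 are expressed in pluripotent cells and trophoblast. Their 8 mature miRNAs summed to 0, 4, 2 and 1 reads in the cyclic UF of mares 1 to 4 and 0, 1, 0, 2 and 2 reads in the pregnant UF of mares 1 to 5. At the floor of 3 reads, these libraries could have shown a level of between 19.8 and 38.3 CPM in pregnant UF. In the embryos the sum lay between 15690.1 and 68166 CPM and in yolk sac fluid between 35722 and 271415 CPM. miR-122, the liver miRNA, which the conceptus also carried (448 reads in the embryos), had 6 reads in cyclic and 2 in pregnant UF.

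A wider list held the 22 known miRNAs with a mean of at least 100 CPM in the embryos and at least 20 times the level of either endometrium group, and was drawn up after the counts had been seen, without the use of UF values. In UF, 17 of the 22 had a read. Of 10 tested members 0 were called, beside 3.03% of all tested miRNAs, a share at which so short a list holds few calls or none. A positive log2 fold change was found for 4 and a negative one for 6, and the median was -0.09. Their summed level lay between 1449 and 4313 CPM (median 2616) in cyclic and between 1779.5 and 3362 CPM (median 1994) in pregnant UF, against between 93309.6 and 126388 CPM in the embryos. miR-378 took most of that sum in UF, with 1510 of 2013 reads in cyclic and 952 of 1333 in pregnant mares.

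**Figure D4:**
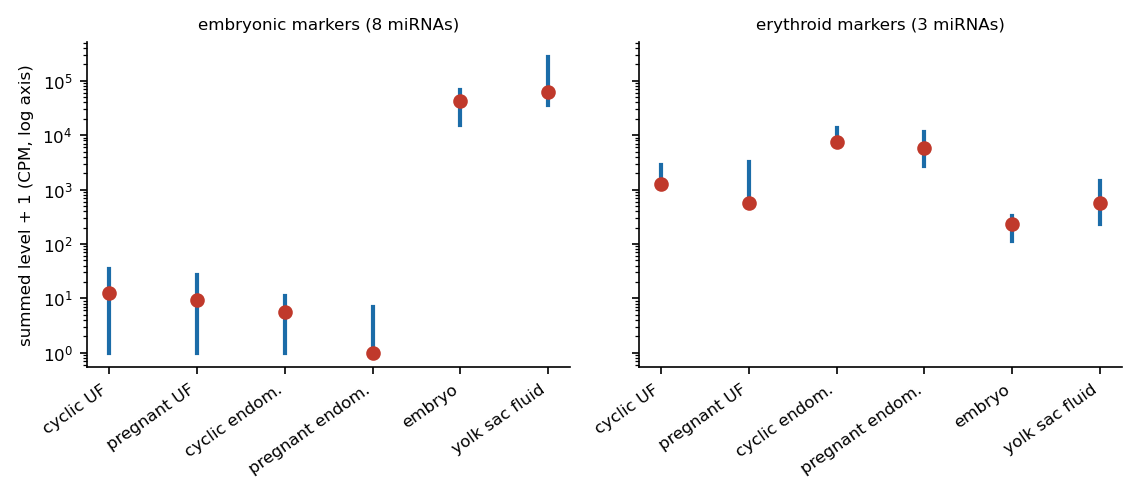
Summed level + 1 (CPM, log axis) of 8 embryonic markers (left) and 3 erythroid markers (right) in cyclic and pregnant UF, cyclic and pregnant endometrium, embryos and yolk sac fluid. Points are medians over 4 cyclic or 5 other libraries and bars run from the lowest to the highest library. Embryonic markers do not exceed 32.9 CPM in UF, and erythroid markers reach 3272 CPM in pregnant UF and 13466 CPM in cyclic endometrium.

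For 2 of the 8 miRNAs called in UF, the effect of pregnancy differed from that in the endometrium of the same mares and cycles, for 1 of them also without mare 3. In the endometrium 7 of 320 miRNAs were called (2.19%), and 1 of the 8 from UF was among them, pred-miR-131, with the opposite direction. pred-miR-131 had 68.7 ± 25.1 CPM in cyclic (SD, n = 4) and 214 ± 100 CPM in pregnant endometrium (SD, n = 5), a log2 fold change of 1.97 ± 0.39 (FDR 0.000600). In UF it was -1.52 ± 0.47. Whether UF and endometrium differed in the effect of pregnancy was tested by an interaction term, which came to -3.38 ± 0.67 (FDR 0.00104). pred-miR-28 also differed between them (-3.90 ± 0.88, FDR 0.00601), with 13.3 ± 10.1 CPM (SD, n = 5) in pregnant and 2.96 ± 2.23 CPM (SD, n = 4) in cyclic endometrium, 24 and 4 reads in all. Its log2 fold change in the endometrium, 2.06 ± 0.85, was not called (FDR 0.302). pred-miR-131 and pred-miR-28 were the 2 that passed the interaction test of 347 miRNAs (0.576%). Without mare 3 the interaction was -2.49 ± 0.61 (SE, FDR 0.0146) for pred-miR-131 and -3.02 ± 1.07 (SE, FDR 0.327) for pred-miR-28, which no longer passed, and without the mare as a block neither passed (FDR 0.554 for both).

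For miR-23b the endometrium had 1508 ± 701 CPM in cyclic (SD, n = 4) and 2379.6 ± 1474 CPM in pregnant endometrium (SD, n = 5), with 0.29 ± 0.29 (FDR 0.828), and the interaction was 1.48 ± 0.50 (FDR 0.250). For miR-23a the endometrial value was 0.11 ± 0.34 (FDR 0.966) and the interaction 1.31 ± 0.52 (FDR 0.626). For miR-486-5p they were 0.18 ± 0.21 (FDR 0.864) and -1.35 ± 0.42 (FDR 0.196). The effects of these 3 miRNAs were thus called in UF and not in the endometrium, but a difference between the compartments was not shown. The same held for pred-miR-126, pred-miR-11 and pred-miR-60, with endometrial values of 0.74 ± 0.80, -0.18 ± 0.67 and -0.55 ± 0.97. miR-155 had about the same log2 fold change in both, 0.90 ± 0.35 in UF and 0.97 ± 0.25 in the endometrium (FDR 0.0149). In yolk sac fluid, in plain CPM, pred-miR-131 had 3469 CPM and miR-423-5p 6645 CPM on average, above each of their levels in UF, and miR-23b had 651 CPM there and 304 CPM in the embryos. These 2 means of miR-23b rested on 32 and 48 reads, and single yolk sac fluid libraries ran from 71.1 to 1268 CPM. On the same scale miR-23b had between 609 and 8224 CPM in UF, lowest in the cyclic library of mare 3.

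**Figure D5:**
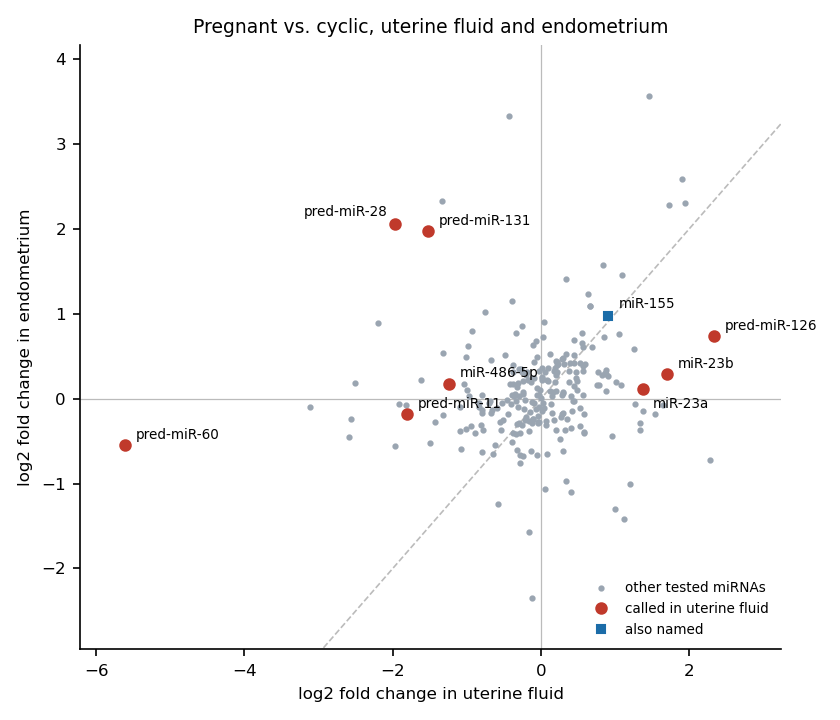
Log2 fold change of miRNAs tested in both, pregnant vs. cyclic, in UF (horizontal axis) and in the endometrium of the same mares (vertical axis). Red points are the 8 miRNAs called in UF, the blue square is miR-155, grey points are the rest, and the dashed line marks equal values. pred-miR-131 and pred-miR-28 lie below 0 in UF and above 0 in the endometrium, and miR-155 lies near the line of equal values.

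miR-23b and pred-miR-28 were called with any single mare left out. miR-23a was lost without mare 2 (FDR 0.344) and mare 3, miR-486-5p without mare 2 (FDR 0.662) and mare 4 (FDR 0.140), and pred-miR-126, pred-miR-11 and pred-miR-131 without mare 4 (FDR 0.884, 0.0763 and 0.993). DESeq2 with the mare as block called 2 miRNAs, miR-23b and pred-miR-28. In the fit reported here the prior degrees of freedom, which set how far the spread of each miRNA is drawn to that of all, were infinite. With filterByExpr or with libraries thinned to equal depth they were 6.51 and 4.87 and 0 miRNAs passed, although miR-23b kept log2 fold changes of 1.70 and 1.78.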

How the data were processed

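Small RNA was counted in 28 libraries, of which the 9 of UF are analysed here beside 9 of endometrium, 5 of embryos and 5 of yolk sac fluid for reference. The libraries had been prepared with the TailorMix kit and sequenced on a MiSeq. With cutadapt 1.11 the authors cut off adapters and discarded short, low-quality and ambiguous reads, and counted the rest with miRPro on the horse miRNAs of miRBase and on miRNAs it predicted on EquCab2.0. They deposited raw read counts per miRNA without normalization. How reads matching several miRNAs were counted is not given in the sources used here. Another table, of precursors, repeated the counts of the predicted miRNAs and was not used. Mature sequences were not used here.

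Groups came from the labels. The replicate number was taken as the mare, since the study describes each mare as its own control. Same-numbered UF samples deviated from their group means together in mares 1, 2 and 4 (correlations over miRNAs of 0.26, 0.40, -0.01 and 0.24 for mares 1 to 4, mean 0.22 against -0.06 for different mares). Deviations from a group mean cancel out within the group, so the value for different mares follows from the other and is no separate evidence. Predicted miRNAs within a Bray-Curtis dissimilarity of 0.05 over all libraries were counted once, by the deepest. miRNAs reaching 1 CPM in 4 or more libraries were tested with edgeR 4.0.16 in R 4.3.3 (TMM, quasi-likelihood test, mare as block, Benjamini-Hochberg FDR) and called where the change was 2-fold or more and the FDR 0.05 or less. The biological coefficient of variation was 36.7%. Each SE is the size of the log2 fold change divided by the square root of the F statistic of its test. It draws on the spread of all miRNAs, the more so with infinite prior degrees of freedom. It is therefore not the spread of a miRNA's own differences over mares. Single values are TMM-normalised CPM, and sums and values of other compartments outside the endometrial fit are plain CPM. The interaction was fitted on 18 libraries and blocked by mare within each compartment. Library properties were compared by exact permutation over 126 arrangements. Other steps used Python 3.11.15, pandas 2.3.3 and scipy 1.17.1. Scripts were tested on simulated counts.

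Named are all called miRNAs, the 12 most abundant known ones, uncalled known ones of at least 2-fold with an unadjusted p under 0.05, known ones of at least 100 CPM without overlap, members of the lists, and miRNAs the study names between pregnant and cyclic mares. miR-331 and the predicted miRNAs without overlap were named after their values were seen. Members and lists were chosen with earlier results of these data known. Alternatives were no block, the likelihood ratio test, DESeq2 1.42.0, RLE size factors, a robust fit, other filters, predicted miRNAs merged at 0.2, kept apart or left out, a fit with endometrium, thinning and each mare left out. Added after the data were seen were sums by miRNA number and 2 settings without mare 3.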

Additional observations from a re-analysis of the deposited data

Results flagged for a closer look

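Single libraries stood far from the rest of their group in 8 of 70 groups of 4 or 5 values examined, by Dixon's criterion. Chance meets it in about 1 of 20 groups of independent, normally distributed values. The values here were CPM and shares without a log scale, and the same libraries recur across groups, so that rate is no yardstick for 8 of 70. The cyclic UF of mare 3 was the highest of its group for pred-miR-60 at 1875 CPM, for pred-miR-28 at 2912 CPM and for pred-miR-11 at 3485 CPM, and in the share of its 10 most abundant miRNAs, 77.8%. The pregnant UF of mare 5 stood apart for miR-486-5p at 2515 CPM and for miR-451 at 385 CPM, that of mare 1 for miR-423-5p at 2718 CPM, and that of mare 4 for the share of let-7 miRNAs, 43.2%.

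The difference between pregnant and cyclic mares differed between UF and endometrium by -3.38 for pred-miR-131 and by -3.90 for pred-miR-28 on the log2 scale, by the interaction term.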

How the results depend on the processing

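The number of miRNAs called in UF, 8 as reported, was 0 without the mare as block although the mares pair the samples, 2 with DESeq2, 0 with filterByExpr, 0 with thinned libraries (20, 18, 15 and 21 with an unadjusted p under 0.05), 15 of 305 with near-identical predictions counted separately and 3 among known miRNAs alone. In settings added after seeing the data it was 0 for known miRNAs without mare 3 and 0 without block and mare 3. Leaving out each mare in turn gave between 4 and 10, the lowest without mare 4 (4). The likelihood ratio test, RLE size factors, the robust fit, no filter, merging at 0.2, the fit with endometrium and the FDR alone gave between 6 and 9. In the fits without block, with filterByExpr and with thinned libraries, edgeR's prior degrees of freedom were between 4.87 and 7.18 instead of infinite, and why was not tested.

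The interaction calls, 2 as reported, were 0 without the block and 0 with filterByExpr (14 and 10 with an unadjusted p under 0.05), and between 1 and 6 with 1 mare left out, 1 without mare 3. A test of seed families was not run because no mature sequences were used. In the sums by miRNA number in its place, 2 were called, 0 without the block, 1 with the likelihood ratio test, 1 with RLE, 0 with filterByExpr, and between 0 and 1 with 1 mare left out, 0 without mare 2 and without mare 3. The sum of miR-486-5p lost its call in each of these settings.

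miR-23b was called in 14 of 19 alternatives, those added after seeing the data included, pred-miR-28 in 13 of 17, pred-miR-126 and miR-23a in 11 of 17 and 11 of 19, pred-miR-60 in 11 of 16, miR-486-5p and pred-miR-11 in 9 of 19 and 9 of 17, and pred-miR-131 in 7 of 17. Of single values, 488 of 555 kept their direction and side of the threshold. Most of these belong to miRNAs that were not called to begin with, so this share does not describe how stable the calls were. With 1 mare left out, the log2 fold change of pred-miR-60 ran from -7.02 to 0.18, that of miR-660 from -0.83 to 0.0227, that of miR-132 from -0.84 to 0.0407, that of miR-27a from -0.0010 to 0.32 and that of miR-27b from -0.0471 to 0.47, so that each changed sign in a setting. Without the mare as a block and without mare 3, miR-27a had -0.15 and miR-27b -0.12.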
